A study of Mus musculus with 8 samples.

Results

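The 8 imprinted postnatal growth genes described here are *H19*, *Dlk1*, *Mest*, *Meg3*, *Peg3*, *Plagl1*, *Cdkn1c* and *Grb10*. They were picked by gene symbol, from a rule that uses no measured value but was proposed with earlier results of these data known, and all 8 are among the 12551 genes counted in tibialis anterior (TA) muscle. The samples were TA muscles of male mice, 7 weeks of age, from 4 WT mice (labelled Klotho wt/wt) and 4 KL-/- mice (labelled Klotho null/null), littermates per the design text, from heterozygous mice on a mixed background. The mutation is systemic and removes Klotho, an aging-suppressing protein, from the whole animal, and the labels name no treatment of either genotype. *Kl* itself was not analysed here, and the genotypes rest on the labels. Each library came from the whole muscle of 1 mouse, so its RNA mixes myofibres with the other cells of the tissue. The comparison asks whether the levels of these growth genes in muscle differed with the loss of Klotho.

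An imprinted gene is transcribed mainly or only from the copy inherited from 1 parent. Counts per gene do not separate the parental copies, so imprinting in TA muscle was not tested for any gene named here. Many such genes act on growth, and a group of them is highly expressed in fetal and newborn tissues, muscle included, and is turned down together as juvenile growth slows. Among the 8, *Dlk1*, *Mest*, *Peg3* and *Plagl1* are expressed from the paternal copy, and *H19*, *Meg3*, *Cdkn1c* and *Grb10* from the maternal copy in most tissues outside the brain. *Cdkn1c* encodes an inhibitor of cyclin-dependent kinases and *Grb10* an adaptor that restrains signaling from the insulin and IGF-1 receptors. *H19* and *Meg3* are long non-coding RNAs, each next to a paternally expressed gene, *Igf2* and *Dlk1* respectively.

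The total count ranged from 20860262 to 26501093 in WT libraries and from 22061526 to 29273758 in KL-/- libraries. Levels are given as counts relative to the total (CPM) after scaling with TMM factors, and 3 counts correspond to 0.105 to 0.143 CPM. Differences between the genotypes were tested by quasi-likelihood in edgeR over all 12551 genes, and a gene was called at a Benjamini-Hochberg adjusted p (FDR) under 0.05. The batch date of KL-/- replicate 3 differed from that of the other 7 libraries, and this date and that mouse cannot be told apart. The tissue label was checked on 8 fast myofibre markers, among them *Ckm* and *Acta1*, whose summed level was 146707 to 166351 CPM in WT and 174654 to 213778 CPM in KL-/- samples.

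Promoter sequence is shown for *Peg3*, the only one of the 8 genes that was called, and for *Meg3*, because the windows of these 2 genes hold a motif that is rare among promoters. RefSeq windows on GRCm38.p6 (mm10), from 250 bases before to 50 bases after a transcription start, matched 6 of the 8 genes with 10 windows, and none was matched for *H19* and *Cdkn1c*. The cAMP response element TGACGTCA, which reads the same on both strands, was found in 588 of 32851 windows of all genes (1.79%) and in 2 of these 10. In *Peg3* it begins 178 bases before the start, within the first exon of *Usp29*, a gene that GENCODE M21 places on the opposite strand with its first coding transcript from position 6730583 of chromosome 7 and a transcript without coding sequence from 6730578. Capitals mark this element in the first stretch, chr7:6730579-6730608 on the minus strand, and both CCAAT boxes (CCAAT, written ATTGG where it lies on the other strand) in the second, chr7:6730432-6730577 on the minus strand, which spans the gap between the annotated *Peg3* and *Usp29* transcripts. The *Meg3* stretch is chr12:109540746-109540995 on the plus strand and ends at the base before the start, with the element, a CCAAT box and 2 overlapping TATAAA matches, 1 per strand, in capitals.
Peg3 cAMP response element: actgactccgtTGACGTCAactccgtgcct
Peg3 CCAAT boxes: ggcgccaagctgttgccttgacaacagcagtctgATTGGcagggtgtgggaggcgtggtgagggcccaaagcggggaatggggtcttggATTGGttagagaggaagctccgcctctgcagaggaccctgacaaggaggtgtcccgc
Meg3 promoter: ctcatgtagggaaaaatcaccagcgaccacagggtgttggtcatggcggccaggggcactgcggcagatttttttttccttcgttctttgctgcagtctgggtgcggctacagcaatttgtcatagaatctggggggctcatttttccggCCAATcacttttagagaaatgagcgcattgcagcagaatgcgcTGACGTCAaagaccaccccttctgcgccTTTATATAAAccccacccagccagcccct
The CCAAT box is common, in 37.4% of all windows, and was found in the windows of these same 2 genes and in no other window of the 8 genes. TATAAA was found in 13.6% of all windows and, of the 10, only in that of *Meg3*, again with both strands searched. The GC box (GGGCGG), also searched, was found in 35.7% of all windows and in 5 of the 10, none of them of *Peg3* or *Meg3*. The 2 genes were shown because of their matches, so the shares are no test of enrichment. These matches describe the letters and do not show that any protein binds there.

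*Peg3* rose in KL-/- muscle. It encodes a large zinc finger protein and lies on chromosome 7, 6705960 to 6730419, on the minus strand. Its level was 52.7, 65.0, 70.5 and 33.7 CPM in WT replicates 1 to 4 and 85.4, 120, 80.1 and 121 CPM in KL-/- replicates 1 to 4. All 4 KL-/- samples lay above all 4 WT samples. The mean was 55.5 ± 16.3 CPM (SD, n = 4) in WT samples, whereas KL-/- samples averaged 102 ± 21.9 CPM (SD, n = 4). This 1.83-fold difference had a log2 fold change of 0.87, a standard error of 0.22 and a 95% interval of 0.37 to 1.38 (edgeR, FDR = 0.0329). The call was lost without WT replicate 1, WT replicate 2 or KL-/- replicate 4, at edgeR FDRs of 0.0724, 0.0585 and 0.0916, while the log2 fold change stayed between 0.70 and 1.01 with any 1 sample left out. Without KL-/- replicate 3, whose batch date differed, it was 0.97 (edgeR FDR = 0.0444).

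*Peg3* was the only call among the 8 genes, with 1 higher and 0 lower, where 14.0% of all genes tested were called, 7.35% higher and 6.67% lower. By unadjusted p, it was also the only 1 of the 8 under 0.05. Of the 8 log2 fold changes 5 were positive and 3 negative, with a median of 0.29, against −0.02 over all genes. It was also the only one of the 8 whose genotypes did not overlap, a property of 19.7% of all genes. The paternally expressed genes held both the most positive value, *Peg3*, and the most negative, *Mest*. *Mest* was not called, so these signs do not show whether the differences followed the parental copy.

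**Figure D1:**
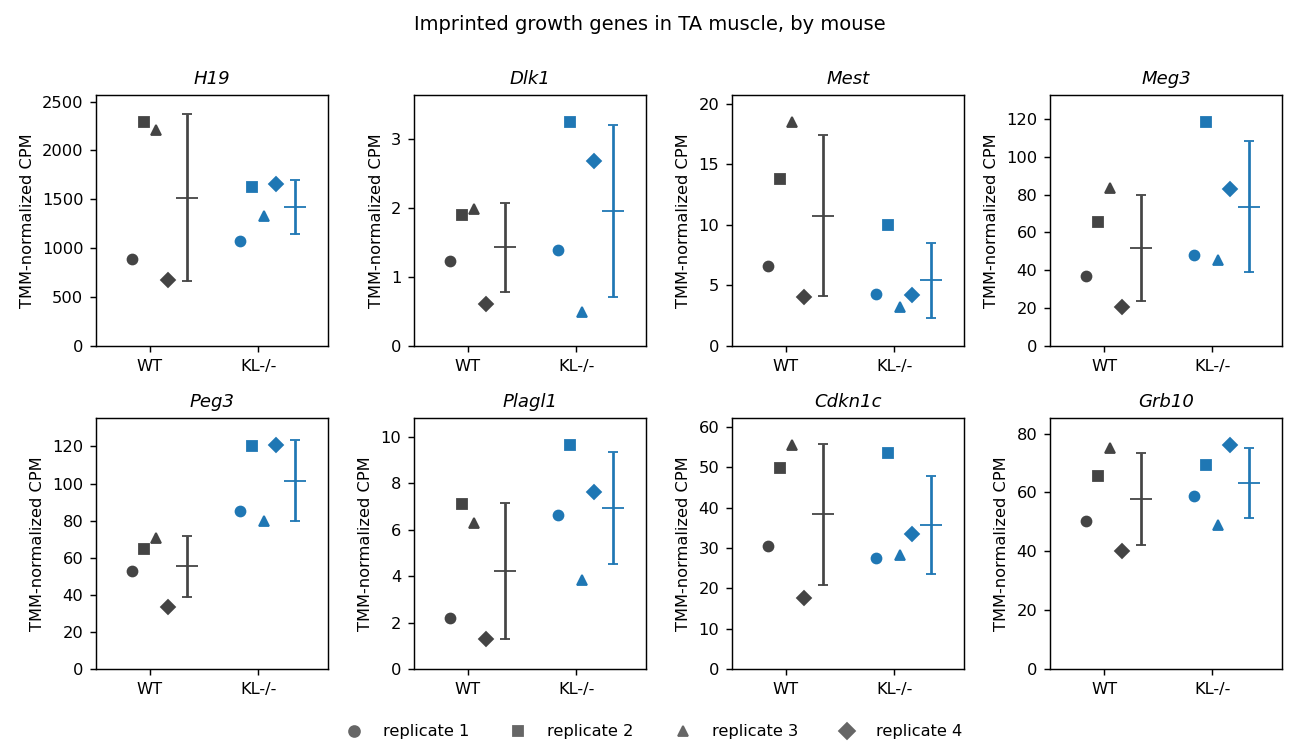
TMM-normalized CPM (linear axes from 0) of the 8 genes in each mouse, with a marker shape per replicate number. No pairing of mice by these numbers is stated. A horizontal mark with bars gives the mean ± SD of 4 mice. The genotypes are separate only for Peg3, and WT replicates 2 and 3 lie above WT replicates 1 and 4 in every panel.

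*Mest* had the largest negative difference of the 8 and was not called. It encodes a protein of the alpha/beta hydrolase fold and lies on chromosome 6, 30733506 to 30748466. Its level was 6.57, 13.8, 18.5 and 4.02 CPM in WT replicates and 4.25, 10.02, 3.19 and 4.18 CPM in KL-/- replicates. WT replicate 4 lay among the KL-/- samples and KL-/- replicate 2 among the WT samples. The log2 fold change was −1.004 with a standard error of 0.49 and a 95% interval of −2.11 to 0.10 (edgeR, FDR = 0.192), and the interval reaches just above 0. Leaving out KL-/- replicate 2 gave −1.45 (edgeR FDR = 0.0677) and leaving out WT replicate 3 gave −0.59 (edgeR FDR = 0.468). The span of the *Mest* gene, introns included, shares 913 bases with that of *Copg2* on the other strand. The use of strand in the counting is not given in the sources used here. How reads from this stretch were assigned is therefore not known. *Copg2* was at 22.1 to 24.7 CPM in WT and 18.1 to 24.5 CPM in KL-/- samples.

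The other paternally expressed genes, *Dlk1* and *Plagl1*, were low. *Dlk1*, a transmembrane relative of the Notch ligands that restrains fat cell formation, lies on chromosome 12, 109452823 to 109463336. It was counted only 12 to 71 times per library, at 1.23, 1.90, 1.98 and 0.610 CPM in WT and 1.39, 3.24, 0.497 and 2.68 CPM in KL-/- replicates. KL-/- samples were both the highest and the lowest of the 8, and the interval of its log2 fold change, −0.70 to 1.60, covers a large difference in either direction. *Plagl1*, a zinc finger transcription factor on chromosome 10, 13090788 to 13131695, was at 2.20, 7.12, 6.29 and 1.29 CPM in WT and 6.63, 9.64, 3.85 and 7.61 CPM in KL-/- replicates. Its log2 fold change was 0.73 with a 95% interval of −0.34 to 1.79 (edgeR, FDR = 0.315), and 2 of 4 KL-/- samples lay above the highest WT sample.

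Among the maternally expressed genes, *H19* was by far the most abundant. Its gene on chromosome 7, 142575530 to 142578146, gave 18884 to 57865 counts per library, and WT replicates were at 890, 2294, 2206 and 677 CPM against 1074, 1627, 1330 and 1657 CPM in KL-/- replicates. All 4 KL-/- samples lay within the range of the WT samples. The log2 fold change was −0.09 with a 95% interval of −0.92 to 0.73 (edgeR, FDR = 0.883), and its sign changed without WT replicate 2, WT replicate 3 or KL-/- replicate 1.

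*Meg3*, on chromosome 12 at 109540996 to 109571729, was at 36.9, 65.4, 83.3 and 20.8 CPM in WT and 47.9, 119, 45.6 and 82.8 CPM in KL-/- replicates. Its log2 fold change of 0.51 had a 95% interval of −0.45 to 1.48 (edgeR, FDR = 0.435), and only KL-/- replicate 2 lay above the WT samples. A non-coding gene on the other strand, *Gm26906*, shares 3096 bases with it. *Cdkn1c*, on chromosome 7 at 143458339 to 143461050, was at 30.5, 49.9, 55.5 and 17.6 CPM in WT and 27.6, 53.6, 28.3 and 33.4 CPM in KL-/- replicates. KL-/- samples again lay within the WT range, with a log2 fold change of −0.10 and a 95% interval of −0.87 to 0.66 (edgeR, FDR = 0.858), and an antisense gene, *Gm44732*, covers 892 of its bases.

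*Grb10* varied the least. The gene lies on chromosome 11, 11930499 to 12037420, and gave 50.3, 65.6, 75.0 and 40.1 CPM in WT and 58.9, 69.2, 49.1 and 76.1 CPM in KL-/- replicates. The genotypes overlapped almost fully. The log2 fold change of 0.13 had the narrowest interval of the 8, −0.31 to 0.57 (edgeR, FDR = 0.673).

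**Figure D2:**
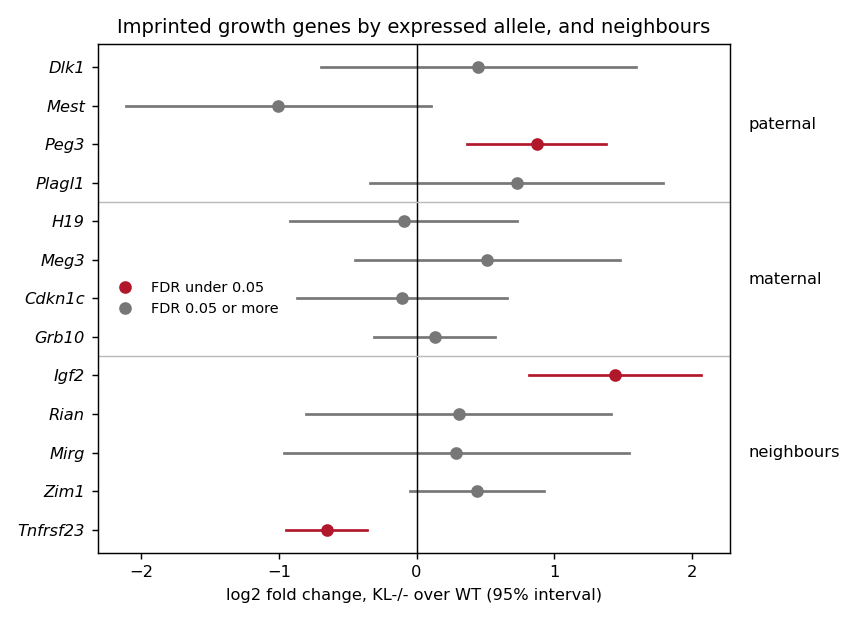
Log2 fold change of KL-/- over WT (points) with 95% intervals (lines) for the 8 genes, grouped by the expressed parental copy, and for 5 imprinted neighbours, both called ones included, in red where the edgeR FDR was under 0.05. The intervals of Peg3 (0.37 to 1.38) and Igf2 (0.82 to 2.07) lie above 0, that of Tnfrsf23 (−0.95 to −0.36) lies below, and the other 10 include it.

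Per kilobase of counted exons, the order of the genes in WT muscle was *H19*, *Cdkn1c*, *Grb10*, *Peg3*, *Meg3*, *Mest*, *Plagl1* and *Dlk1*. *H19* stood at 663 ± 372 CPM per kb (SD, n = 4), above 99.5% of all genes, and *Dlk1* at 0.297 ± 0.134 CPM per kb, above 3.86%. *Cdkn1c* (19.8 ± 9.03 CPM per kb) and *Grb10* (11.2 ± 3.01 CPM per kb) were apart by less than the spread of *Cdkn1c*. *Peg3* was at 8.37 ± 2.46 CPM per kb, with an interval of 1 SD that overlaps those of *Grb10* and *Meg3*, and *Meg3* (3.98 ± 2.17) and *Mest* (3.87 ± 2.40 CPM per kb) were alike in mean. *Plagl1*, at 0.804 ± 0.553 CPM per kb, also overlapped *Dlk1* within 1 SD. In KL-/- muscle the order differed only in that *Peg3*, at 15.3 ± 3.31 CPM per kb, stood above *Grb10* at 12.3 ± 2.30 CPM per kb, and these were again within their spread.

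The 8 genes varied widely between mice of 1 genotype. The highest WT sample exceeded the lowest by 1.87 times for *Grb10*, 2.09 times for *Peg3* and 5.52 times for *Plagl1*. The SD of log2 CPM within genotypes was larger than that of 82.1% of all genes for *Grb10*, of 87.5% for *Peg3* and of 96.5% to 99.2% for the other 6. The spread was wide both in *H19*, with at least 18884 counts in every library, and in *Dlk1*, with at most 71.

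The mice held nearly the same order in each gene. In all 8 genes WT replicates 2 and 3 both lay above WT replicates 1 and 4, an order found in 23.7% of all genes, and WT replicate 4 was the lowest of the 4, as in 27.4% of all genes. Both held together in 8 of 8 genes, against 14.3% of all genes. KL-/- replicate 3 was the lowest KL-/- sample in 6 of 8 genes, with *H19* and *Cdkn1c* as exceptions, against 24.9% of all genes. KL-/- replicate 2 was the highest in 5 of 8, against 32.8% of all genes. This order was noticed in these samples, and is a description. The 8 genes are not independent of each other, since all are read from the same libraries.

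**Figure D3:**
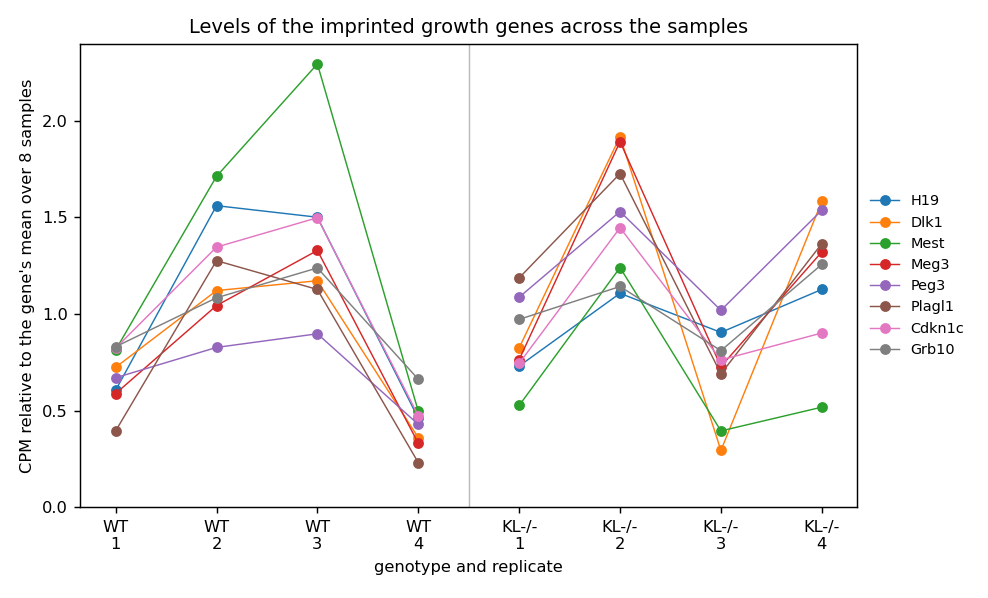
CPM of each of the 8 genes divided by its own mean over the 8 samples (linear axis from 0), for each mouse, with thin lines that only join the points of 1 gene within a genotype. Every gene is higher in WT replicates 2 and 3 than in WT replicates 1 and 4, and 6 of 8 are lowest among KL-/- samples in replicate 3.

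Markers of other cell types moved with the order of the WT mice. The summed level of 8 markers of fibro-adipogenic progenitors, the connective tissue cells of muscle, was 1559, 2463, 2759 and 1133 CPM in WT replicates and 1200, 1204, 564 and 728 CPM in KL-/- replicates, so WT replicates 2 and 3 were again above WT replicates 1 and 4, and KL-/- replicate 3 was again the lowest. Of these markers 4 of 8 were called lower in KL-/- muscle (*Dpp4*, *Dcn*, *Gsn* and *Lum*) and 0 higher. The same WT order held for the sums of 5 of 9 marker lists, those of fibro-adipogenic progenitors, endothelial cells, pericytes and smooth muscle cells, macrophages, and Schwann cells. It did not hold for satellite cells, tenocytes, adipocytes or fast myofibres. In whole muscle, fewer cells of a type and less RNA per cell cannot be told apart, and the part of these cells in the levels of the 8 genes was not tested.

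*Peg3* differed in the opposite direction to the fibro-adipogenic markers, being higher in KL-/- muscle where 8 of 8 markers had a negative log2 fold change (median −0.90). Satellite cell markers, 8 of 8 counted and 0 called, summed to 69.1 to 84.7 CPM in WT and 80.3 to 86.4 CPM in KL-/- samples. Schwann cell markers were called higher in 3 of 6, *Sox10* and *Mbp* among them, with sums of 31.8 to 57.2 CPM in WT and 64.5 to 82.4 CPM in KL-/- samples, which did not overlap. Fast myofibre sums did not overlap either after TMM scaling, with 1 of 8 markers called higher (*Actn3*). The log2 fold change was positive for 7 of these 8 markers and negative for 1 (−0.31). TMM factors were higher in every WT library than in every KL-/- library. The lack of overlap of the myofibre sums is therefore stated for TMM-scaled levels only, and overlap on library totals was not tested. Of the other lists, 2 of 6 tenocyte markers (*Fmod* and *Thbs4*), 1 of 6 endothelial (*Kdr*) and 1 of 6 macrophage markers (*Adgre1*) were called lower, and 0 of 6 pericyte and 0 of 4 counted adipocyte markers (of 6 listed) were called. Adipocyte sums were 6.57 to 25.4 CPM in WT and 5.18 to 71.1 CPM in KL-/- samples. No counted marker was at 0 in any library, and the part of the Schwann cell and myofibre markers in the rise of *Peg3* was not tested.

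*Igf2*, the growth factor gene beside *H19*, rose in KL-/- muscle. IGF2 is a main growth factor of fetal life and is also made by myoblasts. *Igf2* was at 24.3, 44.2, 50.8 and 23.8 CPM in WT and 96.5, 94.7, 67.1 and 130 CPM in KL-/- replicates, without overlap. Its log2 fold change was 1.44 with a standard error of 0.28 (edgeR, FDR = 0.0124), a 2.72-fold difference, and it was called with any 1 sample left out, at edgeR FDRs of 0.0137 to 0.0372. The counted *Igf2* gene (chromosome 7, 142650768 to 142661035) shares 10267 bases with *Gm49394* on the same strand and 1343 with *Igf2os* on the other.

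Count ratios within a library, which do not depend on how libraries are scaled, separated *Igf2* from *H19*. There were 27.3, 19.3, 23.0 and 35.2 *Igf2* counts per 1000 *H19* counts in WT and 89.8, 58.2, 50.5 and 78.6 in KL-/- replicates. The difference in mean log2 ratio was 1.40 (exact permutation, two-sided, p = 0.0286, which is the lowest value possible with 4 against 4 samples). Over the 33 ratios compared the smallest Benjamini-Hochberg adjusted p was 0.0943, so no ratio passed the adjusted threshold, and the design could not have given a lower p for any of them. Among all other genes, 1.59% had a ratio to *H19* without overlap between the genotypes. *Igf2* held the same WT order of mice as *H19*, so this share is not a like-for-like background.

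Some ratios between the 8 genes were without overlap, in part where the levels of both genes overlapped. Of 28 pairs, 8 had ratios without overlap, and 4 of these 8 held *Peg3*, whose own levels did not overlap. Of the 7 pairs with *Mest*, 4 were without overlap, against 0.909% of all other genes in ratio to *Mest*. The WT order of mice found in all 8 genes held in only 14.3% of all genes. The 0.909% is therefore not a like-for-like background. There were 178, 211, 223 and 193 *Mest* counts per 1000 *Meg3* counts in WT and 88.9, 84.5, 69.9 and 50.5 in KL-/- replicates, with a log2 difference of −1.48 (exact permutation p = 0.0286, adjusted p = 0.0943). Within WT, this ratio varied by an SD of 0.14 on the log2 scale, although *Mest* alone ranged over 4.61 times. *Mest* per 1000 *Plagl1* counts was 2981, 1942, 2945 and 3111 in WT and 642, 1040, 828 and 550 in KL-/- replicates (log2 difference −1.86, with the same exact p and adjusted p). Every ratio without overlap has this exact p, so it adds nothing to the lack of overlap. The *Mest* ratios to *Peg3* (log2 difference −1.80) and *Cdkn1c* (−0.87) were also without overlap.

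For *Peg3*, 4 of its 7 pairs were without overlap, but 61.1% of all other genes had a ratio to *Peg3* without overlap. There were 1047, 990, 941 and 840 *Peg3* counts per 1000 *Grb10* counts in WT and 1451, 1738, 1632 and 1587 in KL-/- replicates, a log2 difference of 0.75 with SDs of 0.14 and 0.11 within the genotypes. *H19* per *Peg3* and *Peg3* per *Cdkn1c* differed by −0.82 and 0.92 on the log2 scale, and *Meg3* per *Cdkn1c* by 0.61. Each pair counts for both of its genes. Of 7 pairs each, those without overlap were 1 with *H19*, 2 with *Meg3*, 1 with *Plagl1*, 3 with *Cdkn1c* and 1 with *Grb10*. The shares of all other genes without overlap were 1.59% in ratio to *H19*, 5.3% to *Meg3*, 7.42% to *Plagl1*, 2.46% to *Cdkn1c* and 8.61% to *Grb10*. For *Dlk1*, 0 of its 7 pairs were without overlap, against 1.02% of all other genes. As for *Mest*, none of these shares is a like-for-like background.

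**Figure D4:**
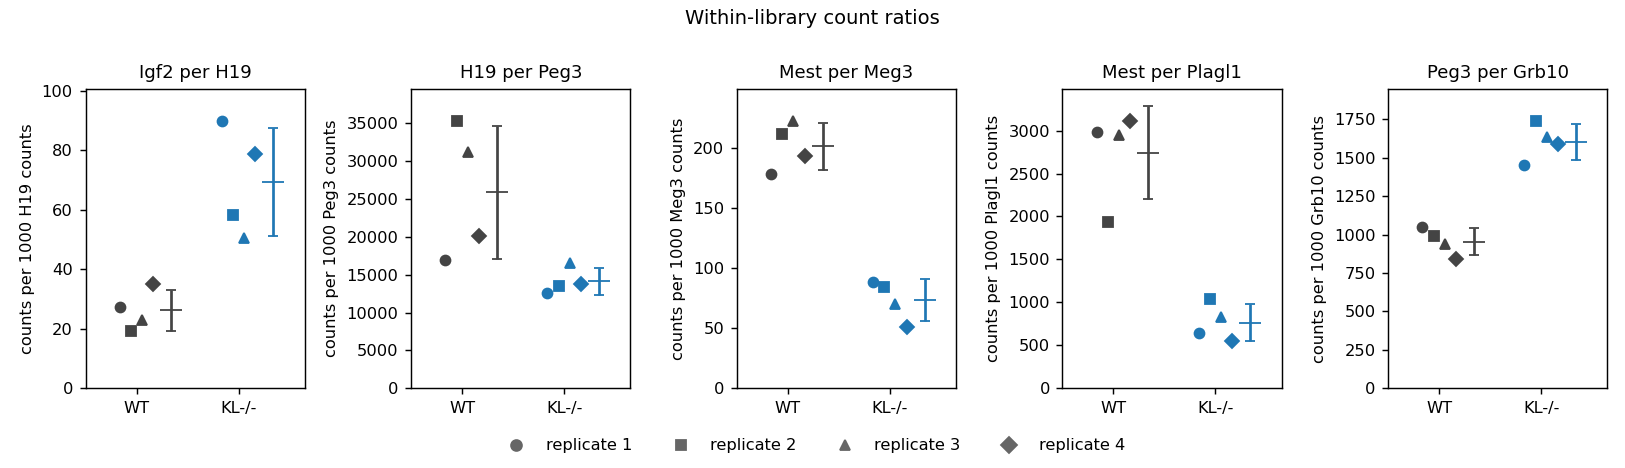
Counts of 1 gene per 1000 counts of another in the same library (linear axes from 0), for 5 of the 10 ratios without overlap between the genotypes, with a marker shape per replicate number and the mean ± SD of 4 mice. In each panel all KL-/- samples lie on 1 side of all WT samples, as for Mest per Meg3 with 178 to 223 in WT and 50.5 to 88.9 in KL-/- samples.

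The neighbours in the same imprinted clusters gave 2 calls among 17 counted of 36 listed, close to the 14.0% of all genes that were called, with 1 higher (*Igf2*) and 1 lower, *Tnfrsf23*, a decoy receptor gene near *Cdkn1c* with a log2 fold change of −0.65 (edgeR FDR = 0.0146). The non-coding RNAs *Rian* and *Mirg*, which follow *Meg3* on chromosome 12, had log2 fold changes of 0.31 (standard error 0.49) and 0.29 (standard error 0.56), at edgeR FDRs of 0.700 and 0.753. *Rian* was at 42.6, 75.8, 95.05 and 21.8 CPM in WT replicates, the same order as *Meg3*. *Zim1*, a zinc finger gene beside *Peg3* that was picked after its values were seen, had a log2 fold change of 0.44 (edgeR FDR = 0.196), and its counts per 1000 *Peg3* counts were 125 to 152 in WT and 93.6 to 106 in KL-/- samples.

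Genes listed as imprinted in other clusters, whose imprinting in muscle was not tested, showed 0 higher and 5 lower calls among 30 counted of 42 listed. Their median log2 fold change was −0.07. Over all genes 7.35% were called higher and 6.67% lower, 14.0% in all. Only the total number of calls was thus near the background, since all 5 calls of 30 were lower. *Peg10*, named after its values were seen, had a log2 fold change of 1.21 without overlap between the genotypes but was not called (edgeR FDR = 0.0541). It was called by DESeq2 (FDR = 0.0125), by edgeR's likelihood ratio test (FDR = 0.0153) and without KL-/- replicate 2 (edgeR FDR = 0.0304). *Slc38a4*, an amino acid transporter, fell from 149 ± 16.3 to 60.7 ± 18.7 CPM (SD, n = 4), with a log2 fold change of −1.30 (edgeR FDR = 0.00475), and was called with any 1 sample left out. *Tfpi2*, a protease inhibitor counted only 4 to 45 times per library, fell by 2.12 on the log2 scale (edgeR FDR = 0.0214), *Pon3*, a lactonase, by 0.59 (edgeR FDR = 0.0291), and *Herc3*, a ubiquitin ligase, by 0.37 (edgeR FDR = 0.0164). *Igf2r*, the receptor that clears IGF2, was the fifth, at −0.24 (edgeR FDR = 0.0485), and is named after its values were seen. The count of 5 rested on single mice. It was 12 without KL-/- replicate 2, 2 without KL-/- replicate 1 or 3, and 3 without KL-/- replicate 4, WT replicate 1 or WT replicate 2. *Herc3* was called throughout, *Tfpi2* was lost without KL-/- replicate 1, 3 or 4, *Pon3* was kept only without WT replicate 4 or KL-/- replicate 2, and *Igf2r* only without KL-/- replicate 2.

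Growth genes that are not imprinted but are likewise turned down after the juvenile period had 0 higher and 4 lower calls among 12 counted of 17 listed, with a median log2 fold change of −0.26, against 6.67% of all genes called lower. *Mycn*, a transcription factor, fell by 1.56 (edgeR FDR = 0.0284), *Igf2bp2*, a binder of *Igf2* and other mRNAs, by 1.11 (edgeR FDR = 0.0223), *Sox4*, a transcription factor, by 1.02 (edgeR FDR = 0.0459), and the cell cycle factor *E2f3* by 0.30 (edgeR FDR = 0.0242), all on the log2 scale. Without KL-/- replicate 4 the count was 0, and it was 1 without KL-/- replicate 1, KL-/- replicate 3, WT replicate 2 or WT replicate 3, and 2 without WT replicate 1 or WT replicate 4. *Igf2bp2* was lost without KL-/- replicate 3 or 4. *Mycn* was kept only without WT replicate 1 or KL-/- replicate 2, *Sox4* only without WT replicate 4 or KL-/- replicate 2, and *E2f3* only without KL-/- replicate 2 or 3. *Peg3* and *Igf2* were thus the only higher calls of the quasi-likelihood test in these 3 lists and the 8 genes.

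Close relatives of the 8 genes gave 1 higher and 1 lower call among 5 counted of 7 listed. Over all genes 14.0% were called, 7.35% higher and 6.67% lower. This list shares some genes, none of them called, with that of the growth genes that are not imprinted. *Grb14*, which like *Grb10* encodes an adaptor bound to the insulin receptor, fell from 31.7 ± 2.54 to 17.0 ± 4.31 CPM (log2 fold change −0.90, edgeR FDR = 0.00760) and was called with any 1 sample left out, whereas *Grb10* was not called. *Cdkn1a*, a kinase inhibitor related to *Cdkn1c*, had a log2 fold change of 0.84 (edgeR FDR = 0.0457), with 3 of 4 KL-/- samples above the highest WT sample. Its call was kept only without KL-/- replicate 2, so the count for this list was 1 when any other sample was left out.

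**Figure D5:**
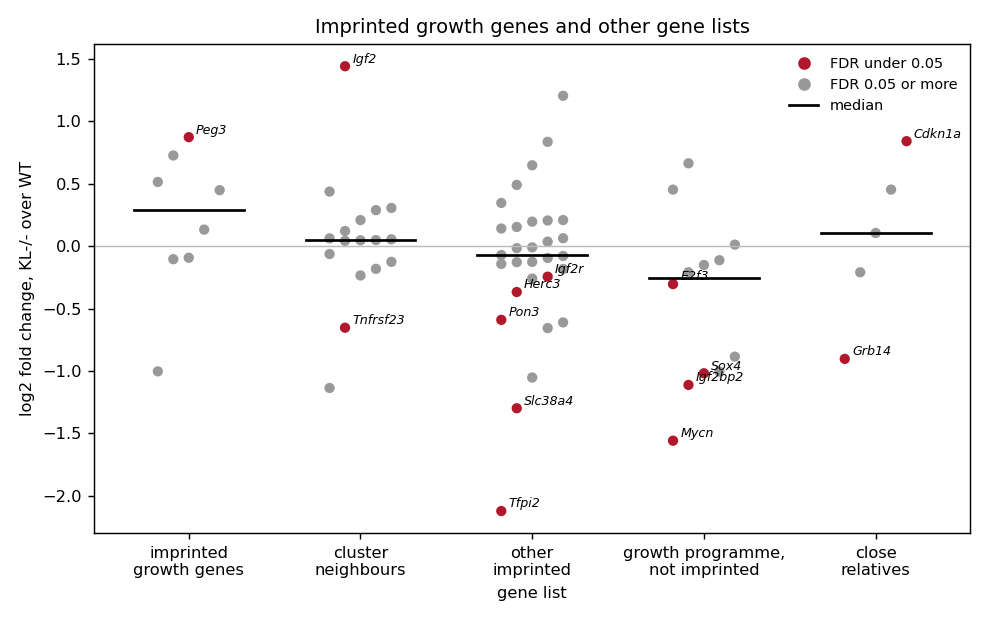
Log2 fold change of KL-/- over WT for the 8 imprinted growth genes, their counted neighbours, other imprinted genes, growth programme genes that are not imprinted, and close relatives, with 1 point per gene, red and named where the edgeR FDR was under 0.05, and a line at the median of each list. The higher calls are Peg3, Igf2 and Cdkn1a, and the medians run from −0.26 to 0.29.

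For 7 of the 8 genes, *Plagl1* aside, the gene with the most similar log2 CPM over the 8 samples was found among 11996 genes that averaged 0 or more in log2 CPM. These were *Gnb4* for *H19* (Pearson r = 0.973), *Hist2h2be* for *Dlk1* (r = 0.971), *Ppic* for *Mest* (r = 0.995), *Chrnb1* for *Meg3* (r = 0.986), *Slc17a7* for *Peg3* (r = 0.987), *A930003A15Rik* for *Cdkn1c* (r = 0.983) and *Frmd4b* for *Grb10* (r = 0.949). Spearman's rho was 0.929 to 1 for these pairs. Each is the highest of many values over 8 shared libraries and is given as a description only.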

How the data were processed

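Gene counts from RNA sequencing of TA muscles were analysed for 4 mice of each genotype. The authors generated libraries from 100 ng of RNA (mRNA per the methods, total RNA per the labels), used STAR for alignment to mm10, discarded alignments of low quality and obtained counts with featureCounts. The deposited values are these raw counts without normalization, already limited to expressed genes. Strand use and annotation version are not given in the sources used here. Exon lengths come from the same deposited table.

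Tests used edgeR 4.0.16 under R 4.3.3 (filterByExpr, which kept all 12551 genes, TMM factors, quasi-likelihood test with genotype only, Benjamini-Hochberg over all genes). Standard errors and 95% intervals were taken from the test statistic. Count ratios were tested by exact permutation (two-sided, 70 relabelings) and were added after the data were seen. No libraries were duplicates. Counts were simulated for KL-/- against WT over 12551 genes, with 100 genes changed per size. Of changes of 1 and 2 on the log2 scale, 76% and 100% were recovered. Recovery was not computed for the imprinted growth genes alone, which varied more within genotypes than 82.1% to 99.2% of all genes. *Mest*, with a log2 fold change of −1.004, was not called. The simulated shares therefore do not show that a change of 1 would be detected in the imprinted growth genes. Alternatives were RLE factors, library totals, other filters, DESeq2 1.42.0, the likelihood ratio test, limma-voom (limma 3.58.1), a replicate block and each sample left out.

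Named genes are the 8 genes, *Igf2*, *Rian* and *Mirg*, up to 4 called genes per other list with the largest changes, and 1 most similar gene each. The most similar gene of *Plagl1* and 1 called marker are not reported here. Called cell type markers, *Igf2r*, *Zim1* and *Peg10* were named after their values were seen. The 8 genes and the lists were chosen with earlier results of these data known. The replicates are separate mice.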

Additional observations from a re-analysis of the deposited data

Results flagged for a closer look

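In 5 of the 50 groups of 4 samples examined, 2 genotypes for each named gene, 1 sample stood apart from the other 3, with a gap to its neighbour above Dixon's critical share of the range. Chance gives about 1 in 20 such groups. *Mest* was 10.02 CPM in KL-/- replicate 2, with the other KL-/- samples at 3.19 to 4.25 CPM. *Grb14* was 23.4 CPM in the same mouse, against 14.4 to 15.6 CPM. In WT replicate 3, *Tnfrsf23* was 7.74 CPM, *Tfpi2* 1.72 CPM and *Igf2r* 150.5 CPM, each the highest of the WT samples.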

How the results depend on the processing

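Settings changed calls more than sizes. For all genes, 1759 calls became 671 with a replicate block and 762 to 2755 with 1 sample left out. No pairing of mice by replicate number was seen. The correlations of deviations were −0.146, 0.181, −0.368 and 0.017, and 1 of 4 WT samples correlated best with its own number. These values cannot show that no mice shared a litter. With the block, 0 of the 8 genes were called (*Peg3* FDR = 0.0724) against 1, and with 1 sample left out 0 to 1. The other 7 alternatives kept the *Peg3* call, and all 8, the block included, kept that of *Igf2*. For the 8 genes' neighbours (2 calls) library totals gave 5, and leaving out samples gave 2 to 3. For other imprinted genes (5 calls) library totals gave 8, DESeq2 11, the likelihood ratio test 9 and the block 3, with 2 to 12 when leaving out samples. For growth genes that are not imprinted (4 calls) the block gave 1 and leaving out samples 0 to 4. For relatives (2 calls) library totals, limma-voom and the block gave 1, and leaving out samples 1 to 2.

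Signs turned only for genes that were not called. *H19* had a log2 fold change of 0.082 with limma-voom, 0.074 with the block and −0.34 to 0.18 with 1 sample left out. In the same way *Cdkn1c* ranged from −0.36 to 0.13, *Grb10* from −0.0079 to 0.28, *Rian* from −0.23 to 0.64 and *Mirg* from −0.019 to 0.93. Log2 differences in ratios ranged from 1.26 to 1.55 for *Igf2* per *H19*, −1.59 to −1.31 for *Mest* per *Meg3* and 0.69 to 0.80 for *Peg3* per *Grb10*. Among single genes, 58 values lost their call with no change of sign. The cause of these changes was not tested. With library totals the median over all genes shifted from −0.016 to −0.13 (log2), and the share of higher among all calls from 52.4% of 1759 to 18.8% of 2619. Depth limits *Dlk1* (12 to 71 counts) and *Tfpi2* (4 to 45 counts).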
